A study of Homo sapiens with 10 samples.

Results

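Bone morphogenetic proteins (BMPs) are secreted ligands of the TGF-beta superfamily. They bind pairs of serine/threonine kinase receptors, which phosphorylate SMAD1, SMAD5 and SMAD9, and these enter the nucleus with SMAD4. Among the best known genes switched on by that complex are the ID genes, whose helix-loop-helix proteins lack a DNA-binding region and hold E proteins away from DNA, and the genes of the feedback inhibitors SMAD6 and SMAD7. In the colon BMP signalling is known to be stronger towards the top of the crypt, where cells differentiate, and to be held down near the stem cells at its base.

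Expression of 10 genes of this pathway was examined, out of 58884 genes in the count tables. They were chosen by name, with earlier results of these data known. They comprise the 4 ID genes (ID1, ID2, ID3, ID4), 3 BMP ligand genes (BMP2, BMP4, BMP7) and 3 genes of inhibitors of the pathway (SMAD6, SMAD7, BAMBI). Polyadenylated RNA had been sequenced from HCT116, a human colorectal carcinoma line with the genotype WT (6 libraries), and from its derivative DNMT1 KO (4 libraries). Neither received a treatment. The derivative carries a deletion of exons of DNMT1, the maintenance DNA methyltransferase gene, and still makes a shortened protein at a low level, so the study treats it as a hypomorph. Each genotype is 1 cell line and the libraries are separate cultures of it, so the errors below describe cultures and not independent knockouts.

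The count tables summed to between 35418732 and 85991812 per HCT116 library and to between 26700853 and 55732013 per DNMT1 KO library. By the labels, batch 1 holds replicate 1 of both genotypes and batch 2 holds replicates 2 and 3 of both. DNMT1 KO replicate 4 is alone in batch 3 among the libraries used, and HCT116 replicates 7, 8 and 9 form batch 4. DNMT1 KO replicate 4 also stood apart in its counts: among its genes with 1 to 10 counts 39.9% had an even count, against 64.4% or more in each of the other 9 libraries. DNMT1 itself was at 89.8 to 263 CPM in HCT116 and at 14.1 to 22.3 CPM in DNMT1 KO (log2 fold change -2.97, SE 0.33, edgeR adjusted p = 1.74e-05). CPM here is counts per 1000000, on library totals scaled by TMM, and a fold change is DNMT1 KO over HCT116 throughout.

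Of the 10 genes, 4 were called higher in DNMT1 KO (ID3, BMP4, SMAD6, SMAD7) and 5 lower (ID1, ID2, ID4, BMP2, BAMBI), while BMP7 was not called. The calls come from edgeR's quasi-likelihood test, and a call needed more than a 2-fold difference (1 on the log2 scale) besides an adjusted p below 0.05. Of all 19279 genes tested 13.9% were called, 7.42% higher and 6.49% lower. The adjusted p alone was under 0.05 for 9 of the 10 genes and for 16.1% of all genes. The 10 genes were chosen with earlier results of these data known, so their excess over such shares is no evidence about the pathway. Libraries of the 2 genotypes did not overlap in CPM for 8 of the 10, against 15.2% of all genes tested. Among these 8, ID4 and BMP2 entered the test only through HCT116, where they were higher. ID2 was apart only by 45.9 against 45.8 CPM. With at least 10 counts required in every library, ID4 and BMP2 were untested and 3 members were called lower. The median log2 fold change was -0.92 over the 10 genes and -0.07 over all genes tested, and the median size of the change, sign disregarded, was 1.72 and 0.43. In bulk RNA, fewer cells expressing a gene and less RNA of it per cell cannot be told apart.

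**Figure D1:**
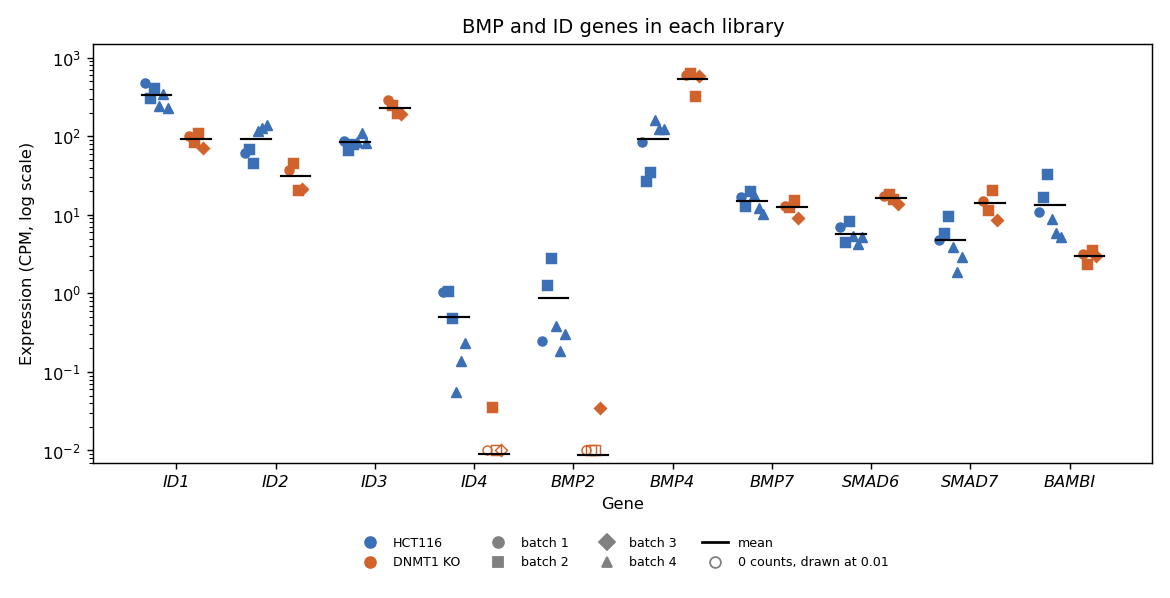
Expression of the 10 genes in each library, in CPM on a log axis, with blue points for HCT116 (n = 6), orange for DNMT1 KO (n = 4), marker shapes for the batches, black bars for group means, and open symbols at 0.01 for libraries with no count. ID1 and BMP4 cross over between the genotypes: ID1 falls from a mean of 337 to 92.0 CPM and BMP4 rises from 92.5 to 543 CPM.

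The genes of ID proteins did not move together. ID1 (ENSG00000125968, hg38 chromosome 20, 31605283 to 31606515, plus strand) and ID3 (ENSG00000117318, chromosome 1, 23557926 to 23559501, minus strand) are close relatives, both known as immediate targets of BMP-activated SMADs, and they changed in opposite directions. Their promoters are shown because they belong to the pair of members of 1 family that parted. The windows of 300 bases run from 250 before to 50 after the RefSeq start on GRCh38.p14, read on the gene's strand, with capitals at every CG, the dinucleotide that DNA methyltransferases modify.
ID1, chr20:31605039-31605338, plus strand: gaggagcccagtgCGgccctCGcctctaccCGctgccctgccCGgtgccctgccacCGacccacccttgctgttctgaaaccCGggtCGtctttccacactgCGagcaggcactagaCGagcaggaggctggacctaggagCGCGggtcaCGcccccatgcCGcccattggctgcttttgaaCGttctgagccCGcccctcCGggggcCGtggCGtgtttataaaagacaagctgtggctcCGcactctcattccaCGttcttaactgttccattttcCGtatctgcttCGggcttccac
ID3, chr1:23559452-23559751, minus strand: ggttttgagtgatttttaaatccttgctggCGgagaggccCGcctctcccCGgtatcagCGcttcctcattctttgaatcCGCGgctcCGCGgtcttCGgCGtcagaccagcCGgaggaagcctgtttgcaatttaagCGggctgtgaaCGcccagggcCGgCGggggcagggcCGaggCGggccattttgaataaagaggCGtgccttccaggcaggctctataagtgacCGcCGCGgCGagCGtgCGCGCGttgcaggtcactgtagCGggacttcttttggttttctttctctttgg
The ID1 window holds 22 CG and the ID3 window 27. Of 35116 promoters of the same length, 37.7% have as many CG as ID1 or more and 28.2% as many as ID3 or more. Both lie above the median of 14.

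ID1 was at 476, 305, 418, 241, 349 and 233 CPM in HCT116 replicates 1, 2, 3, 7, 8 and 9. In DNMT1 KO replicates 1 to 4 it was at 102, 85.5, 111 and 70.3 CPM. Every DNMT1 KO library lay below every HCT116 library. ID1 fell 3.66-fold (log2 fold change -1.87, SE 0.27, edgeR adjusted p = 0.000182). The log2 ratio was -2.23 within batch 1, with 1 library per genotype. Within batch 2, with 2 per genotype, ID1 had a log2 fold change of -1.88 (SE 0.35, edgeR adjusted p = 0.0214).

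ID3 was at 87.0, 66.2, 80.1, 83.7, 111 and 81.3 CPM in HCT116 replicates 1, 2, 3, 7, 8 and 9. The DNMT1 KO replicates 1 to 4 were at 289, 248, 199 and 192 CPM. The groups were again fully apart, with DNMT1 KO the higher. ID3 rose 2.73-fold (log2 fold change 1.45, SE 0.21, edgeR adjusted p = 0.000195). The rise was of like size inside batch 1 (log2 ratio 1.73) and inside batch 2 (log2 fold change 1.61, SE 0.33, edgeR adjusted p = 0.0277).

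ID2 (ENSG00000115738, chromosome 2, 8678845 to 8684461, plus strand) encodes a further ID protein, and the size of its difference and its call depended on how batch was handled. It was at 61.1, 68.4 and 45.9 CPM in HCT116 replicates 1 to 3 and at 115, 129 and 139 CPM in replicates 7 to 9, which make up batch 4. The DNMT1 KO replicates 1 to 4 were at 36.8, 45.8, 20.4 and 21.6 CPM. The genotypes barely separated, with the lowest HCT116 library at 45.9 and the highest DNMT1 KO library at 45.8 CPM. With all libraries ID2 fell 2.99-fold (log2 fold change -1.58, SE 0.36, edgeR adjusted p = 0.00697). A fit of batches 1 and 2 that included a batch term gave ID2 a log2 fold change of -0.77 (SE 0.33), which did not pass (edgeR adjusted p = 0.170). The same term in a fit of all libraries gave -0.77 for ID2 (edgeR adjusted p = 0.101). That is not a second estimate, since batches 3 and 4 hold 1 genotype each and add nothing to it. A replicate block over replicates 1 to 3, the same libraries as batches 1 and 2, gave -0.82 (edgeR adjusted p = 0.0877). Reads of ID2 can also be taken up by ID2B, a processed copy on chromosome 3, which stood at 4.25 to 10.5% of the ID2 level in CPM over the 10 libraries. A share of 1.7% of the ID2 exonic length is overlapped by the antisense gene ID2-AS1, and no strand option is named for the counting.

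ID4 (ENSG00000172201, chromosome 6, 19837370 to 19842197, plus strand), the remaining family member, was barely expressed. It was at 1.05, 1.08, 0.481, 0.0557, 0.139 and 0.232 CPM in HCT116 replicates 1, 2, 3, 7, 8 and 9, 133 counts in all. DNMT1 KO had 2 counts in all, both in replicate 2. The pooled level was 37.1-fold higher in HCT116, with a 95% counting interval of 10.1 to 309 (exact binomial). This interval leaves out the spread between libraries. ID4 was called lower (edgeR adjusted p = 0.00518), yet it entered the test only through the HCT116 libraries and was too low to be tested in 6 of the 20 alternative settings. The HCT116 level was itself uneven, with replicates 7 to 9 below replicates 1 to 3.

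Read per kilobase of exon, the ID family changed its leading gene. The RPKM of a gene is its CPM divided by its exonic length in kilobases. In HCT116 ID1 supplied 61.7 to 82.0% of the summed RPKM of the 4 ID genes and ID3 12.3 to 18.4%. In DNMT1 KO ID3 supplied 57.3 to 66.1% and ID1 27.1 to 38.7%. The ratio of ID1 to ID3 RPKM was 4.89 ± 1.46 in HCT116 (SD, n = 6) and 0.491 ± 0.124 in DNMT1 KO (SD, n = 4), with no library of 1 genotype inside the range of the other. Within HCT116 it was 5.60 to 6.64 in replicates 1 to 3 and 3.47 to 3.81 in replicates 7 to 9. The summed ID level was 372 ± 70.7 RPKM in HCT116 (SD, n = 6) and 244 ± 40.7 RPKM in DNMT1 KO (SD, n = 4). These shares follow from the values above and were not tested.

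**Figure D2:**
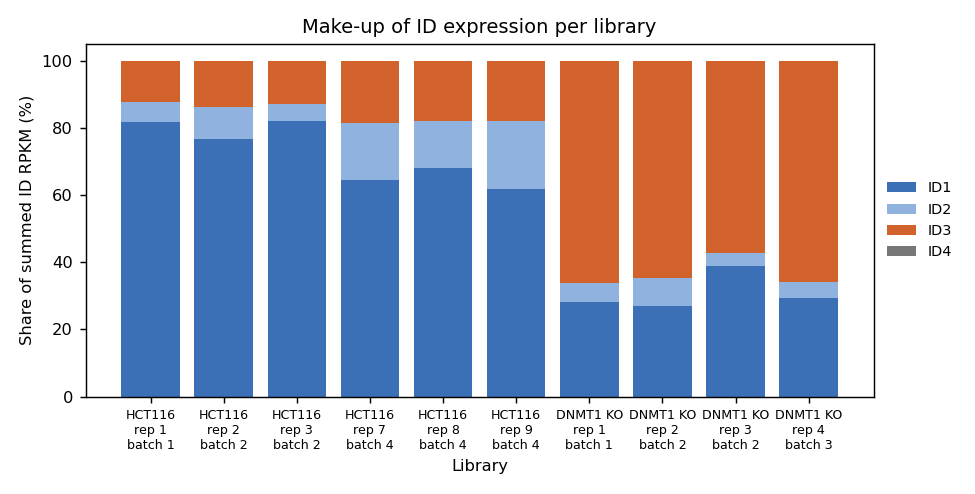
Share of the summed RPKM of ID1, ID2, ID3 and ID4 held by each gene (y axis, percent) in each of the 10 libraries (x axis). ID1 is the larger part of every HCT116 bar (61.7% or more) and ID3 of every DNMT1 KO bar (57.3% or more), while ID4 is too small to be seen.

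Among the ligands BMP4 dominated. BMP4 (ENSG00000125378, chromosome 14, 53949736 to 53958761, minus strand) encodes a ligand that signals through BMPR1A and BMPR2 and is known to promote differentiation of colon epithelial cells. It was at 84.0, 27.1, 34.7, 163, 124 and 123 CPM in HCT116 replicates 1, 2, 3, 7, 8 and 9, and at 609, 646, 329 and 589.5 CPM in DNMT1 KO replicates 1 to 4. The lowest DNMT1 KO library, replicate 3, still lay well above the highest HCT116 library, replicate 7. BMP4 rose 5.87-fold (log2 fold change 2.55, SE 0.44, edgeR adjusted p = 0.000700). The log2 ratio was 2.86 within batch 1, and for batches 1 and 2 fitted together with a batch term it was 3.61 as a log2 fold change (SE 0.39, edgeR adjusted p = 0.000434). These values leave out batch 4, where the HCT116 levels of BMP4 were highest. The most upstream of the 3 RefSeq starts of BMP4 is shown as the promoter of the ligand that rose, again with CG in capitals.
BMP4, chr14:53955001-53955300, minus strand: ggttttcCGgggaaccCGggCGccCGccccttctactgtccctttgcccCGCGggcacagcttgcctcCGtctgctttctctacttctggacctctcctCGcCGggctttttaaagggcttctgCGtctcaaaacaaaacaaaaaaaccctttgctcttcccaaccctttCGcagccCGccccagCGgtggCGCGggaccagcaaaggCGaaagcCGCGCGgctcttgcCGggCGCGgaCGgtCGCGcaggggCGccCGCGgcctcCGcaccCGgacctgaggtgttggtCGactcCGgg
This window holds 32 CG, a number that 18.9% of promoters reach or exceed. It also holds GGCGCC at 2 places, 232 bases before and 2 bases after the start. This palindrome is a sequence that BMP-activated SMADs are known to bind, reads the same on both strands, and is found in 19.2% of all promoters. A match to letters is no evidence that a protein is bound there.

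BMP2 (ENSG00000125845, chromosome 20, 6767686 to 6780246, plus strand) encodes the ligand most like BMP4 and was close to silent. It was at 0.247, 1.26, 2.83, 0.390, 0.186 and 0.302 CPM in HCT116 replicates 1, 2, 3, 7, 8 and 9, or 236 counts. DNMT1 KO had 1 count in all, in replicate 4. The pooled level was 132-fold higher in HCT116, with a 95% counting interval of 23.4 to 5220 (exact binomial) that leaves out the spread between libraries. BMP2 was called lower (edgeR adjusted p = 0.00181). As with ID4, only HCT116 brought BMP2 into the test. HCT116 replicates 2 and 3, from batch 2, carried most of its signal.

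BMP7 (ENSG00000101144, chromosome 20, 57168753 to 57266641, minus strand), a ligand of another BMP subgroup, was the gene of the 10 that was not called. It was at 10.3 to 19.9 CPM in HCT116 with a median of 14.995 CPM, and at 13.1, 12.6, 15.6 and 9.18 CPM in DNMT1 KO replicates 1 to 4. The libraries of both genotypes overlapped widely. The log2 fold change of BMP7 was -0.25 (SE 0.26, edgeR adjusted p = 0.578). Its adjusted p ran from 0.460 to 0.946 over 20 alternative settings. Of the summed RPKM of the 3 ligand genes, BMP4 supplied 71.5 to 95.3% in HCT116 and 97.4 to 99.1% in DNMT1 KO, and the sum was 32.9 ± 17.1 (SD, n = 6) and 178 ± 46.4 RPKM (SD, n = 4).

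The 3 inhibitor genes changed in different directions. SMAD6 and SMAD7, which encode intracellular inhibitory SMADs, were both higher in DNMT1 KO. SMAD6 (ENSG00000137834, chromosome 15, 66702236 to 66782849, plus strand) was at 6.93, 4.56, 8.34, 5.38, 4.23 and 5.19 CPM in HCT116 replicates 1, 2, 3, 7, 8 and 9. In DNMT1 KO replicates 1 to 4 it was at 17.5, 18.2, 15.9 and 13.8 CPM, all above every HCT116 library. SMAD6 rose 2.84-fold (log2 fold change 1.50, SE 0.25, edgeR adjusted p = 0.000643). In batch 2 alone its log2 fold change was 1.41 and did not pass (SE 0.43, edgeR adjusted p = 0.0982). The SMAD6 promoter is shown as the member window that holds GTCTAGAC, the palindrome formed by a pair of SMAD binding boxes.
SMAD6, chr15:66701986-66702285, plus strand: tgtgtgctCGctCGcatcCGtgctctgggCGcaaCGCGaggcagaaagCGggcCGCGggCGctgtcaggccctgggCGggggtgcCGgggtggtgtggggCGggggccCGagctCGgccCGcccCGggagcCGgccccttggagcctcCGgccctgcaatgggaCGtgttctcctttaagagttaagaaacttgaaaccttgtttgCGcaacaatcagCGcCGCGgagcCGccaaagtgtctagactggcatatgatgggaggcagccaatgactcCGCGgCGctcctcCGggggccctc
The GTCTAGAC begins 12 bases before the start, and 0.202% of all promoters hold this sequence. The window has 29 CG, reached or exceeded by 24.2% of promoters.

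SMAD7 (ENSG00000101665, chromosome 18, 48919853 to 48952052, minus strand) was at 4.83, 5.91, 9.55, 3.84, 1.86 and 2.88 CPM in HCT116 replicates 1, 2, 3, 7, 8 and 9. It was at 15.1, 11.6, 20.7 and 8.69 CPM in DNMT1 KO replicates 1 to 4. The groups overlapped at 1 point, as DNMT1 KO replicate 4 lay below HCT116 replicate 3. SMAD7 rose 2.93-fold (log2 fold change 1.55, SE 0.40, edgeR adjusted p = 0.0147). The call rested on DNMT1 KO replicate 3: without it the SMAD7 log2 fold change was 1.31 and did not pass (edgeR adjusted p = 0.0625). It did not pass in batch 2 alone either (log2 fold change 1.07, SE 0.45, adjusted p = 0.225).

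BAMBI (ENSG00000095739, chromosome 10, 28677510 to 28682932, plus strand) encodes a membrane protein that resembles a TGF-beta family receptor without a kinase domain and dampens signalling. It was at 10.8, 17.0, 33.4, 8.88, 5.81 and 5.24 CPM in HCT116 replicates 1, 2, 3, 7, 8 and 9. In DNMT1 KO replicates 1 to 4 it was at 3.13, 2.38, 3.52 and 2.99 CPM, a narrow range below all HCT116 libraries. BAMBI fell 4.49-fold (log2 fold change -2.17, SE 0.50, edgeR adjusted p = 0.00663). In HCT116 it ranged from 5.24 to 33.4 CPM, highest in batch 2 and lowest in batch 4. Its promoter is shown because it has the most CG of the 12 member windows.
BAMBI, chr10:28677271-28677570, plus strand: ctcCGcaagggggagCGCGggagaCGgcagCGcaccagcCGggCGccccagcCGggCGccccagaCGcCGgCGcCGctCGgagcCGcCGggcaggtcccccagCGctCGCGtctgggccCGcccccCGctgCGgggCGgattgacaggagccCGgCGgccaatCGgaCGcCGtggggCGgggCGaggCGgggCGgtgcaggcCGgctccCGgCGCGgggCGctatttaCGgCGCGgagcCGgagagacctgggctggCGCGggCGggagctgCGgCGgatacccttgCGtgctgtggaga
It holds 47 CG, a number that 2.41% of promoters reach, and GGCGCC at 3 places, 209, 196 and 181 bases before the start. Promoters were found for 8 of the 10 genes, in 12 windows, and not for BMP2 and BMP7. Of the 12 windows, 10 lay above the median number of CG, 2 held GGCGCC (the BMP4 window above and BAMBI) and 1 held GTCTAGAC.

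**Figure D3:**
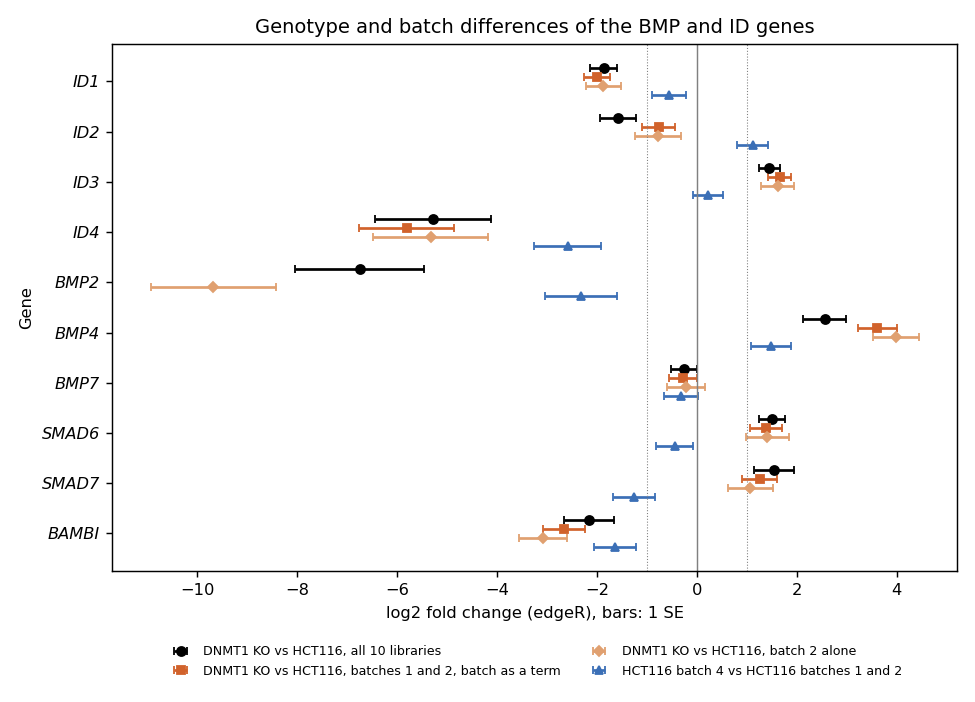
Log2 fold changes of the 10 genes (x axis, bars of 1 SE) between DNMT1 KO and HCT116 in all libraries, in batches 1 and 2 fitted with a batch term and in batch 2 alone, and between HCT116 batch 4 and HCT116 batches 1 and 2; dotted lines mark the fold limit. ID1, ID3 and SMAD6 lie far from 0 between genotypes. Between HCT116 batches they are at -0.57, 0.22 and -0.44 (SE 0.34, 0.30 and 0.37) and were not called. BMP4 (1.47) and BAMBI (-1.65) also differ between HCT116 batches, and BMP2 has no value in batches 1 and 2 together.

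To see how far these genes vary without a change of genotype, HCT116 batch 4 was compared with HCT116 batches 1 and 2, 3 libraries each, by the same test. Of the 10 genes 4 were called, against 8.03% of all genes tested. ID2 (log2 fold change 1.11, edgeR adjusted p = 0.0371) and BMP4 (1.47, adjusted p = 0.0370) were higher in batch 4, and BAMBI (-1.65, adjusted p = 0.0292) and ID4 (-2.59, adjusted p = 0.0317) were lower. ID1 (log2 fold change -0.57), ID3 (0.22), SMAD6 (-0.44) and BMP7 (-0.32) had adjusted p-values from 0.307 to 0.678. SMAD7 (-1.26, adjusted p = 0.0756) and BMP2 (-2.33, adjusted p = 0.0606) came nearer to the threshold. This comparison and that of the genotypes share the HCT116 libraries.

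The genotype difference was next taken within the batches that hold both genotypes. With 3 libraries per genotype from batches 1 and 2 and a term for batch, 14.3% of genes were called. Here 4 of the 10 genes were called higher, as with all libraries, and 3 lower (ID1, ID4 and BAMBI), while ID2 did not pass and BMP2 was too low to be tested. The interaction of genotype and batch, batch 2 minus batch 1 on the log2 scale, was 3.27 for ID4, -1.30 for BAMBI and 1.13 for BMP4, and between -0.57 and 0.35 for the other 6 genes tested. The ID4 value depends on how the fit treats a 0, as DNMT1 KO replicate 1 had no ID4 count. The interaction passed for 0 of the 9 in edgeR's test (adjusted p under 0.05, 0% of all genes; unadjusted p under 0.05 also in 0 of the 9). As batch 1 holds 1 library per genotype, this does not show that the batches were alike.

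Levels between genes were compared per kilobase of exon. In HCT116 ID1 stood first at 273 ± 78.6 RPKM (SD, n = 6), above the range of every other member. ID3 (56.7 ± 9.78 RPKM), ID2 (42.0 ± 17.7) and BMP4 (29.9 ± 17.4) followed, and each overlapped the next. BAMBI (6.32 ± 4.97 RPKM), BMP7 (2.78 ± 0.682), SMAD7 (0.956 ± 0.541), SMAD6 (0.675 ± 0.183), BMP2 (0.246 ± 0.294) and ID4 (0.131 ± 0.118) came last, all neighbours overlapping except BMP7 and SMAD7, whose ranges all but met. In DNMT1 KO BMP4 (176 ± 46.7 RPKM, SD, n = 4) and ID3 (155 ± 30.3) stood first with overlapping ranges. ID1 (74.7 ± 14.5 RPKM) and ID2 (14.1 ± 5.55) came next, each clear of its neighbours. SMAD7 (2.79 ± 1.03 RPKM), BMP7 (2.33 ± 0.488), SMAD6 (1.91 ± 0.231) and BAMBI (1.41 ± 0.222) overlapped in turn, and ID4 and BMP2 were next to 0.

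The rest of the pathway was read from 8 lists, 67 genes in all, of which 49 passed the filter on low counts. Of these 9 were called higher and 2 lower, 22.4% against 13.9% of all genes, with a median log2 fold change of 0.20. The lists too were chosen with earlier results known, so the higher share is no evidence about the pathway. In the list of other BMP-class ligands 5 of 11 genes were tested and 2 were called higher. BMP6 rose from 2.89 ± 0.766 to 7.47 ± 2.09 CPM (log2 fold change 1.37, edgeR adjusted p = 0.00598), and BMP5, named after its value was seen, rose from 14 counts in HCT116 to 155 in DNMT1 KO. BMP8B (log2 fold change 0.74, adjusted p = 0.0347) stayed under the fold limit, and it shares much of its sequence with BMP8A, so reads of these genes may be split or lost.

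Of 9 receptor and co-receptor genes tested, 1 was called higher and 1 lower. ACVR2A, a gene of a receptor for activins and BMPs, rose from 18.1 ± 2.49 to 50.8 ± 10.3 CPM (log2 fold change 1.49, SE 0.21, edgeR adjusted p = 0.000143). RGMA, which encodes a BMP co-receptor, fell from 10.5 ± 2.79 to 4.75 ± 0.809 CPM (log2 fold change -1.14, adjusted p = 0.0118). The main BMP receptor genes BMPR1A (log2 fold change -0.14, SE 0.27), BMPR2 (0.58, SE 0.28) and ACVR1 (0.04, SE 0.30) were not called. RGMA did not pass when batches 1 and 2 were fitted with a batch term (edgeR adjusted p = 0.0743) or with a replicate block (adjusted p = 0.0912).

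Of the 6 SMAD signal transducer genes 1 was called. SMAD9, the least abundant of the BMP-activated SMAD genes in CPM in HCT116, rose from 4.32 ± 0.979 to 20.1 ± 13.2 CPM (log2 fold change 2.22, SE 0.38, edgeR adjusted p = 0.000679). It was at 20.4, 15.1, 38.0 and 6.74 CPM in DNMT1 KO replicates 1 to 4, all above the HCT116 range of 3.16 to 5.91 CPM. SMAD1 (log2 fold change 0.11, SE 0.24) and SMAD5 (0.09, SE 0.26) were not called, and SMAD4 (0.72, adjusted p = 0.0799) did not pass.

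Among 7 secreted antagonist genes tested out of 14, FST was called higher (0.277 ± 0.152 to 1.32 ± 0.671 CPM, log2 fold change 2.20, edgeR adjusted p = 0.00734). FST encodes follistatin, which binds activins and some BMPs. Its log2 fold change was 3.06 (edgeR adjusted p = 0.0102) when batches 1 and 2 were fitted with a batch term. The intracellular inhibitor genes gave 1 call in each direction. NEDD4L, a ubiquitin ligase gene, fell from 41.1 ± 11.1 to 16.9 ± 2.47 CPM (log2 fold change -1.28, SE 0.26, edgeR adjusted p = 0.00260). SKIL, which encodes a SMAD corepressor, rose from 28.4 ± 15.3 to 74.2 ± 46.9 CPM (log2 fold change 1.39, adjusted p = 0.0309). SKIL was not called in 10 of 20 alternative settings: it did not pass in a fit of all libraries with a batch term (edgeR adjusted p = 0.0581), with batches 1 and 2 and that term (0.150) or with a replicate block (0.281). Nor did it pass in batch 2 alone (edgeR adjusted p = 0.468), without DNMT1 KO replicate 3, where it had reached 139 CPM (log2 fold change 0.90, adjusted p = 0.166), or without DNMT1 KO replicate 1 or HCT116 replicate 1, 7, 8 or 9 (adjusted p from 0.0565 to 0.0776). The E protein genes TCF3 (log2 fold change 0.31, adjusted p = 0.468) and TCF12 (-0.01, adjusted p = 0.987), whose products ID proteins bind, were not called.

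Of 5 further genes of BMP-responsive transcription factors that were tested, 2 were called higher. MSX1, a homeobox gene, was at 61.4 to 192 CPM in HCT116 and at 585, 619.6, 255 and 459 CPM in DNMT1 KO replicates 1 to 4 (log2 fold change 2.16, SE 0.33, edgeR adjusted p = 0.000308). ATOH8 rose from 0.572 ± 0.434 to 3.28 ± 1.18 CPM (log2 fold change 2.55, SE 0.48, adjusted p = 0.00158). MSX2, the relative of MSX1 and also a known BMP target, was not called (log2 fold change -0.20, SE 0.28). On the TGF-beta and activin side 1 of 9 tested genes was called: TGFB3 rose from 1.29 ± 0.300 to 3.02 ± 0.521 CPM (log2 fold change 1.22, edgeR adjusted p = 0.0125). TGFB3 did not pass without DNMT1 KO replicate 2 (edgeR adjusted p = 0.0539). TGFBR2, the type II TGF-beta receptor gene, was at 57.7 ± 15.3 and 28.9 ± 1.39 CPM and lay just inside the fold limit (log2 fold change -0.998, edgeR adjusted p = 0.01005).

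**Figure D4:**
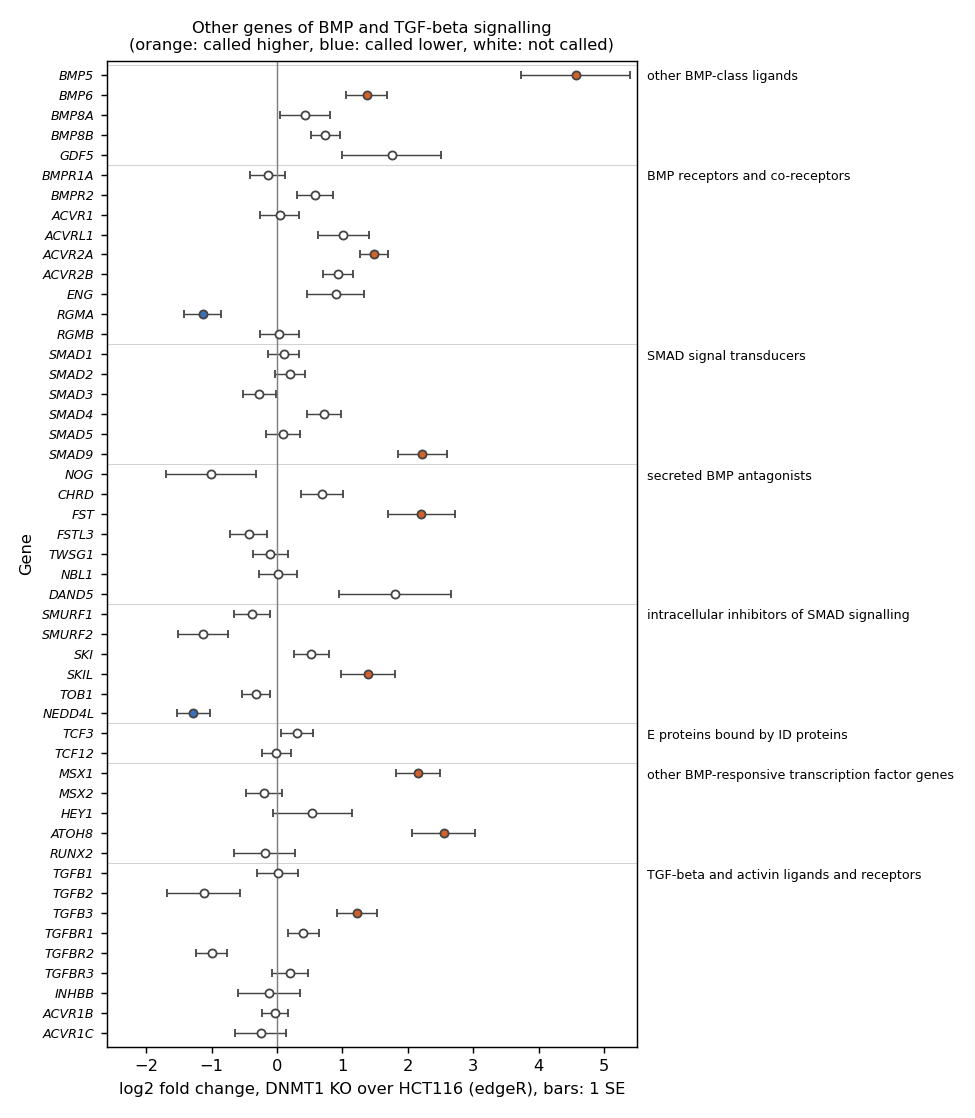
Log2 fold changes of the 49 tested genes of the 8 pathway lists (x axis, DNMT1 KO over HCT116, edgeR, bars of 1 SE), with the list names at the right and filled points for called genes. Called increases are spread over 7 of the 8 lists, the largest in CPM being MSX1, and the 2 decreases are RGMA and NEDD4L.

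Markers of cell type moved with genotype as well. Of 9 markers of colorectal epithelium 7 were tested, 4 were called lower (EPCAM, CDH1, KRT8, KRT18) and 1 higher (VIL1), and their summed level was 2520 to 6130 CPM in HCT116 and 645 to 1431 CPM in DNMT1 KO. KRT20 had no count in any library and CDX1 had 2 counts in HCT116 and 7 in DNMT1 KO. Of 5 fibroblast markers 2 were called higher (LUM, PDGFRB), with summed levels of 6.40 to 19.8 and 11.7 to 20.2 CPM, and DCN and COL1A2 were at 0 in HCT116. COL1A1 made up most of that sum in HCT116 and went the other way. It was at 12.5 ± 4.27 CPM in HCT116 and 6.72 ± 5.06 CPM in DNMT1 KO and was not called (log2 fold change -0.90, edgeR adjusted p = 0.183). Of 3 endothelium markers 2 were called higher, with summed levels of 0.107 to 0.743 and 3.35 to 5.61 CPM. PTPRC, a marker of leukocytes, had 2 counts in each genotype. The part of these shifts in the BMP and ID results was not tested.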

How the data were processed

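RNA-seq of HCT116 (6 libraries) and DNMT1 KO cells (4 libraries) was analysed from the deposited counts. The authors trimmed paired-end reads of TruSeq stranded mRNA libraries with Trim Galore (0.4.1), aligned them with bowtie2 to hg38, removed reads with a mapping quality under 10 and summed reads over exons with featureCounts. No strand option is named. The deposited tables hold these counts without normalisation. As bowtie2 leaves reads unsplit at exon junctions, genes with many short exons may be counted low. A further 3 count tables, named as HCT116, match no sample in the series' list and were not used. Symbols came from GENCODE release 44, in which 58472 of 58884 genes were found.

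The quasi-likelihood test of edgeR 4.0.16 (R 4.3.3) was used with TMM factors, filterByExpr defaults and genotype as the term, two-sided, with Benjamini-Hochberg adjustment across all 19279 tested genes. An SE is the absolute log2 fold change over the root of its F statistic. The test was checked on simulated data. Alternatives were RLE factors, library totals alone, other filters, DESeq2 1.42.0, batch or replicate as a term, batch 2 alone, halved counts and leaving out each library. Counts were halved in 9 libraries, all but DNMT1 KO replicate 4. Counting intervals and floors cover counting error only. If counts come in mate pairs, as the even numbers in 9 libraries may reflect, these intervals are too narrow. Promoter sequences are from RefSeq on GRCh38.p14.

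All 10 genes are named. Of the other lists, called genes are named where the higher group averaged 1 CPM or more, or the most abundant gene where none was called, and a few further genes are given for context. The members and lists were chosen with earlier results of these data known.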

Additional observations from a re-analysis of the deposited data

Results flagged for a closer look

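In 2 of 20 groups of values examined (each of the 10 genes in each genotype) 1 library stood apart from the rest of its group (Dixon's criterion, 95%). Chance alone marks about 1 group in 20, but that rate does not hold for groups of mostly 0 counts. Both marked groups had no count in 3 libraries, so any count in the remaining library was bound to be marked. ID4 was at 0.0355 CPM in DNMT1 KO replicate 2, from 2 counts, and had no count in the other 3 DNMT1 KO libraries. BMP2 was at 0.0348 CPM in DNMT1 KO replicate 4, from 1 count, and had no count in the other 3.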

How the results depend on the processing

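No member changed sign under the 20 alternatives. Of 190 member values, 183 kept their call or lack of it and 7 were no longer called: ID2 in 4 settings with batch terms, a replicate block or batch 2 alone, SMAD6 in batch 2 alone, and SMAD7 in batch 2 alone and when DNMT1 KO replicate 3 was left out. Batch 2 alone has 4 libraries; the cause was otherwise not tested.

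Members called lower numbered 3 where 10 counts were required in every library and with halved counts (both leave ID4 and BMP2 untested). The number was also 3 when batches 1 and 2 were fitted with a batch term (BMP2 untested). In batch 2 alone, with 4 libraries, 2 members were called higher. Genes called numbered 734 higher and 766 lower with the filter of 10 counts and 815 and 798 in batch 2 alone, against 1431 and 1251. DESeq2 called the same number of members. Leaving out each library gave 3 to 4 members called higher and 4 to 5 lower, 4 where ID4 fell under the filter. With library totals alone the median log2 fold change of all genes moved by 0.21, and 66.3% of calls were increases against 53.4% with TMM (1878 higher, 956 lower).

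The libraries were treated as not paired by replicate number. Deviations of replicates 1, 2 and 3 correlated at 0.50, -0.22 and 0.38. These values do not settle the question, as libraries of the same replicate number also share a batch. With a replicate block over replicates 1 to 3, 3 members were called lower and 4 higher (ID2 did not pass, BMP2 was untested), and 1232 genes were called higher and 1235 lower.

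Of 219 values of the named pathway genes 20 were no longer called: SKIL in 10 settings, RGMA in 4 (library totals alone, where its log2 fold change was -0.92, both batch 1 and 2 fits and batch 2 alone), TGFB3 in 2 (without DNMT1 KO replicate 2 and in batch 2 alone, adjusted p = 0.177), and BMP6 (0.0519), FST (0.0607), NEDD4L (0.0675) and MSX1 (0.0576) in batch 2 alone.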

Other observations

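The genes whose pattern was most like that of ID1 across libraries, once the mean of each genotype had been taken off log2 CPM, were SLC1A1 (Pearson r 0.98), HAGH (0.97), C2orf68 (0.94), FIBCD1 (0.94) and JAK3 (0.93), over 10 libraries and out of 9283 protein-coding genes of at least 10 CPM. None of these 5 was called between genotypes, with edgeR adjusted p-values from 0.0949 to 0.701. These libraries share batches and the figures are a description. Among the members themselves, deviations of BMP2 and BAMBI went together (r 0.90 over the same 10 libraries) and those of ID2 and BAMBI in opposite directions (r -0.83), the HCT116 libraries of batch 4 being low in BAMBI and high in ID2. The value for BMP2 and BAMBI rests mainly on the HCT116 libraries, as BMP2 had 1 count in all of DNMT1 KO.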
